A study of Mus musculus with 8 samples.

Results

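The distal end of chromosome 12, from 110 Mb to under 120 Mb on the mm9 build, was described in prefrontal cortex (PFC) RNA of a mouse model of Fabry disease. Of 55681 non-control array probes, 489 start in this stretch, from chr12:110003158 to chr12:119841416. The stretch was selected on measured values: it was chosen by the number of its probes that differed between the genotypes in these same arrays. The contrast of the genotypes within it is therefore a description, and no test was made over its members as a group.

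The α-Gal A(-/0) mice lack α-galactosidase A, the lysosomal enzyme encoded by Gla on the X chromosome, and the males carry no second copy. There were 4 male α-Gal A(-/0) mice, labelled as C57BL/6J, with the background given as C57BL/6 in the study's methods, and 4 male wildtype C57BL/6J mice, all 20 to 24 weeks old. They came from separate inbred colonies, so a difference between colonies and an effect of the genotype cannot be told apart. Each mouse was measured on 1 one-color array, all on 1 slide and 1 scan, with Cyanine-3 brightness as the readout. The genotypes were not balanced over the slide rows: most wildtype arrays lay in row 1 and most α-Gal A(-/0) arrays in row 2. Values below are log2 intensities after quantile normalization, in arbitrary units. They compare mice for 1 probe and do not rank different probes.

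This end of the chromosome holds 3 kinds of sequence. The Dlk1-Meg3-Dio3 cluster is imprinted: Dlk1, Rtl1 and Dio3 are expressed from the paternal copy, and the noncoding RNAs Meg3, Rian and Mirg, together with many microRNAs and small nucleolar RNAs, from the maternal copy, with strong expression in brain. The immunoglobulin heavy chain locus carries the variable segments and the constant segments of IgM, IgD, IgG, IgE and IgA, and is transcribed in B cells and plasma cells, which are rare in brain. Beyond it lie Zfp386, a gene of the large family of Krüppel-type zinc finger proteins, Vipr2, Wdr60, Esyt2, Ncapg2 and Ptprn2.

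The probes are DNA strands of 60 bases, and the sequences behind the results are given first, 5′ to 3′ as the array design gives them. The following belong to the immunoglobulin constant segments with the largest differences. For the IgG2a probe BC019489, the first 30 bases are shown. They lie at chr12:114525526-114525555, the IgG2a probe AK007918 at chr12:114525600-114525659 and the IgM probe at chr12:114659630-114659689, all on the reverse strand of mm9.

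IgG2a, BC019489: ccatatccatgcatcccttgtataaataaa
IgG2a, AK007918: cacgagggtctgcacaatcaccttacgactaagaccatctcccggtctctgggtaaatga
IgM, ENSMUST00000103426: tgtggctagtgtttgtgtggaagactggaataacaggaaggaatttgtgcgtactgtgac

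The next pair comes from a noncoding interval on the reverse strand, chr12:117623500-117643575, in which 5 probes were tested. The pair with the lowest adjusted p is shown, at chr12:117637870-117637929 and chr12:117638010-117638069.

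interval probe 3: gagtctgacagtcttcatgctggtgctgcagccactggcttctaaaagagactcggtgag
interval probe 4: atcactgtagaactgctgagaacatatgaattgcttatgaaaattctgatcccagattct

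For 4930427A07Rik, 2 probes overlap in 31 identical bases and gave different results. Shown are the 29 bases that each does not share with the other, at chr12:114403580-114403608 and chr12:114403640-114403668 on the forward strand.

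4930427A07Rik, first probe only: ggaagggaagtttagtaattccaactctt
4930427A07Rik, second probe only: acattaataagatgtgtctcaatggcgga

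For the imprinted noncoding RNAs, the Meg3 and the Mirg probe with the lowest p are shown, at chr12:110809678-110809737 and chr12:110968992-110969051 on the forward strand. Mature microRNAs were not measured by these probes. As examples of the microRNAs made from this cluster, 2 mature sequences are given from RefSeq (GRCm38.p6), with the seed, bases 2 to 8, in capitals. Their seeds differ. RefSeq lists 58 microRNA hairpins between Dlk1 and Dio3.

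Meg3: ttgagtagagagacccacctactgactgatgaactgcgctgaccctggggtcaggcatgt
Mirg: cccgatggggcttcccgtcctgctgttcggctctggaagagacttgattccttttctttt
miR-127-3p: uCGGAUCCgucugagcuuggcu
miR-410-3p: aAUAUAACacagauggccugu

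The Gla probe does not separate the genotypes. It read 17.13, 17.18, 17.17 and 17.13 in the α-Gal A(-/0) mice and 17.01, 17.17, 17.06 and 17.13 in the wildtype mice, a log2 difference of 0.06 with an adjusted p of 0.707 in limma. These values are bright and equal in some mice, since quantile normalization sets them by rank, so a difference may be compressed. Whether this probe lies in the disrupted part of the gene is not known from the sources used here, so it does not check the labels. The array of α-Gal A(-/0) mouse 2 had 29943 probes well above background, and the other 7 arrays had 35218 to 38240. All listed probes for excitatory neurons, inhibitory neurons, astrocytes and oligodendrocytes passed the filter on signal, as the label of cortex asks. In these lists and those of blood and striatum, 0 probes were called in limma or in the methods' t-test, and at an unadjusted p under 0.05 there were 6 lower and 4 higher probes. Summed linear signals ranged, in α-Gal A(-/0) and wildtype mice, from 34683.8 to 35846.3 and from 37883.8 to 40329.7 for astrocytes, and from 72419.5 to 80517.1 and from 80887.8 to 90783.9 for microglia, so these 2 lists did not overlap between the genotypes. Among 11 microglial probes, 1 of the 3 of Csf1r, the receptor of the macrophage growth factor, fell by 0.44 (adjusted p = 0.0119), and the other 2 differed by -0.37 (adjusted p = 0.0614) and 0.59 (adjusted p = 0.648). In this list 5 probes were lower at an unadjusted p under 0.05, and 0 were called by the methods' t-test. The 11 striatal probes had a median log2 difference of 0.599, with sums of 80667.4 to 215567.6 and 64157.2 to 152016.1, which overlapped. The part of such cell content in the results on chromosome 12 was not tested.

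A probe was tested where every array of one genotype, or of both, read it well above background, which held for 247 of the 489. A probe counted as called where its adjusted p was under 0.05. In the stretch 14 of 247 tested probes, or 5.67%, were called, 13 lower and 1 higher in α-Gal A(-/0) mice, against 304 of 34339, or 0.885%, on the whole array. The whole-array share was 0.580% for lower and 0.306% for higher. Because the stretch was chosen for this contrast, nothing is read from the excess. With a filter on all 8 arrays, 8 of 205 tested probes were called, 7 of them lower. On the same chromosome before 110 Mb, 15 of 1109 tested probes were called, and windows of 10 Mb ranged from 0% to 7.14%. With the study's own limits, 0.01 for the unadjusted p and 1.2 for the fold change, 22 probes were lower and 7 higher, where the whole array had 2.32% lower and 1.14% higher. The genotypes did not overlap in 24 probes that were lower and 11 that were higher, where the whole array had 4.87% and 3.08%. Without the array of α-Gal A(-/0) mouse 2, 15 probes of the stretch were called.

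The first of the 14 called probes lies at chr12:114392029 and the last ends at chr12:117638069, and 52 probes were tested between these limits, which the calls themselves set. Median log2 differences were 0.071 in the imprinted cluster, 0.003 in the genes between it and the immunoglobulin probes, -0.233 in the immunoglobulin probes and -0.269 in the distal genes. Over all tested probes the median was -0.025. Single arrays move these medians. That of the cluster was 0.013 without α-Gal A(-/0) mouse 1 and 0.133 without wildtype mouse 2. That of the immunoglobulin probes was -0.133 without α-Gal A(-/0) mouse 1, -0.419 without α-Gal A(-/0) mouse 3 and -0.147 without wildtype mouse 4. That of the distal genes was -0.169 without α-Gal A(-/0) mouse 2 and -0.365 without α-Gal A(-/0) mouse 3. That of the genes between ranged from -0.008 to 0.028. The called probes had a median G and C content of 43.3%, equal to that of all tested probes. At 110 Mb, the probe just inside read 6.09 in α-Gal A(-/0) and 6.77 in wildtype mice on average, and the nearest tested probe outside read 5.70 and 5.50. At 120 Mb, the probe just inside read 14.32 and 14.28, and the Sp8 probe just outside 7.56 and 7.59.

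**Figure D1:**
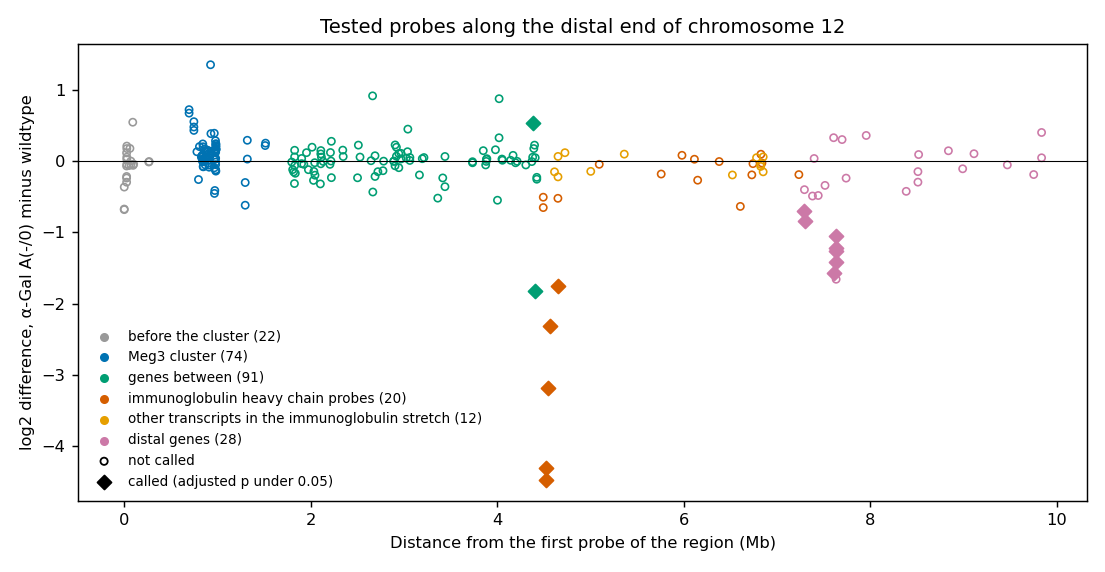
Log2 difference between α-Gal A(-/0) and wildtype mice (y axis, means of 4 mice each) for the 247 tested probes, by distance from the first probe of the stretch in Mb (x axis). Colors mark the segments, with the number of tested probes, and filled diamonds mark the 14 called probes, which begin past the imprinted cluster and of which 1, Crip1, lies above 0.

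In the imprinted cluster, from the first Dlk1 probe to the last Dio3 probe (chr12:110698502 to chr12:111518851), 0 of 74 tested probes were called in limma and 0 in the methods' t-test. At an unadjusted p under 0.05, 9 were higher and 3 lower, where the whole array had 1517 higher and 2600 lower of 34339 tested. The cluster holds 119 probes in all. The probe of Rtl1, a retrotransposon-derived gene needed in placenta, was not tested, since it was well above background on none of the 8 arrays.

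Meg3, the maternally expressed noncoding RNA that gives the cluster its name, was measured by 3 probes that did not move together. The probe at chr12:110809678-110809737 read 16.18, 16.16, 16.12 and 16.27 in α-Gal A(-/0) mice and 15.98, 16.05, 15.92 and 15.98 in wildtype mice. Every α-Gal A(-/0) mouse was above every wildtype mouse, but the log2 difference of 0.20 ± 0.06 (SE) had an adjusted p of 0.229. The second probe, at chr12:110799558-110799617, differed by -0.26 ± 0.14 (adjusted p = 0.504) and the first, at chr12:110782745-110782804, by 0.13 ± 0.09 (adjusted p = 0.621), and in both the genotypes overlapped. With an intensity trend and robust variances, the difference of 0.20 at chr12:110809678 was called (adjusted p = 0.0452).

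Mirg, the noncoding RNA at the far end of the maternally expressed unit and the host of miR-410, also had 3 probes. The one at chr12:110968992-110969051 read 8.03, 8.06, 8.36 and 8.39 in α-Gal A(-/0) mice and 7.63, 7.84, 7.81 and 8.01 in wildtype mice. The genotypes did not overlap, with the lowest α-Gal A(-/0) mouse close above the highest wildtype mouse, and the difference of 0.39 ± 0.11 was not called (adjusted p = 0.244). The other 2 Mirg probes differed by 0.03 and 0.16. In the interval around Mirg, 15 probes on its strand had a median log2 difference of 0.162 and 7 probes on the opposite strand one of -0.127. Of these 22 probes 0 were called in limma or the methods' t-test. An unadjusted p under 0.05 was reached by 4 on the Mirg strand, all higher, and 2 on the opposite strand, both lower. Of the 4, those starting at chr12:110986374, chr12:110986389 and chr12:110986444 overlap and do not count as separate signals. The one with the lowest p on the opposite strand read 8.96, 8.72, 9.16 and 8.96 in α-Gal A(-/0) mice against 9.39, 9.51, 9.29 and 9.28, with no overlap (log2 difference -0.41, adjusted p = 0.152).

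Between Meg3 and Mirg, 6430411K18Rik, a noncoding RNA on the strand opposite to Rtl1, differed by 0.05 ± 0.10 (adjusted p = 0.883). The 2 probes of 1110006E14Rik, an unclassified transcript beside it, differed by 0.06 and 0.08, and that of the uncharacterized LOC102637727 by 0.13. In all 4 probes the genotypes overlapped. One probe of a forward-strand interval between Meg3 and Mirg, starting at chr12:110928978, was high in a single mouse: α-Gal A(-/0) mouse 2 read 10.89, where the other 7 mice read 4.66 to 5.76. That mouse also had the array with the fewest probes above background. Its part in this value was not tested.

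The paternally expressed genes at the ends of the cluster varied more between mice than between genotypes. Dlk1, a membrane protein of the Notch ligand type that restrains differentiation, read 9.20, 9.71, 9.41 and 7.45 in α-Gal A(-/0) mice and 7.36, 8.93, 8.27 and 8.54 in wildtype mice at its brighter probe. Mouse 4 of the α-Gal A(-/0) group and mouse 1 of the wildtype group were the low ones in both Dlk1 probes, and the differences of 0.67 ± 0.52 and 0.72 ± 0.48 were not called (adjusted p = 0.653 and 0.595). Dio3, the deiodinase that inactivates thyroid hormone, read 5.95, 6.09, 5.83 and 5.98 against 5.61, 5.95, 6.07 and 5.21, a difference of 0.25 ± 0.18 (adjusted p = 0.618). Its antisense RNA Dio3os differed by 0.22 ± 0.13 (adjusted p = 0.547). Both overlapped between the genotypes.

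**Figure D2:**
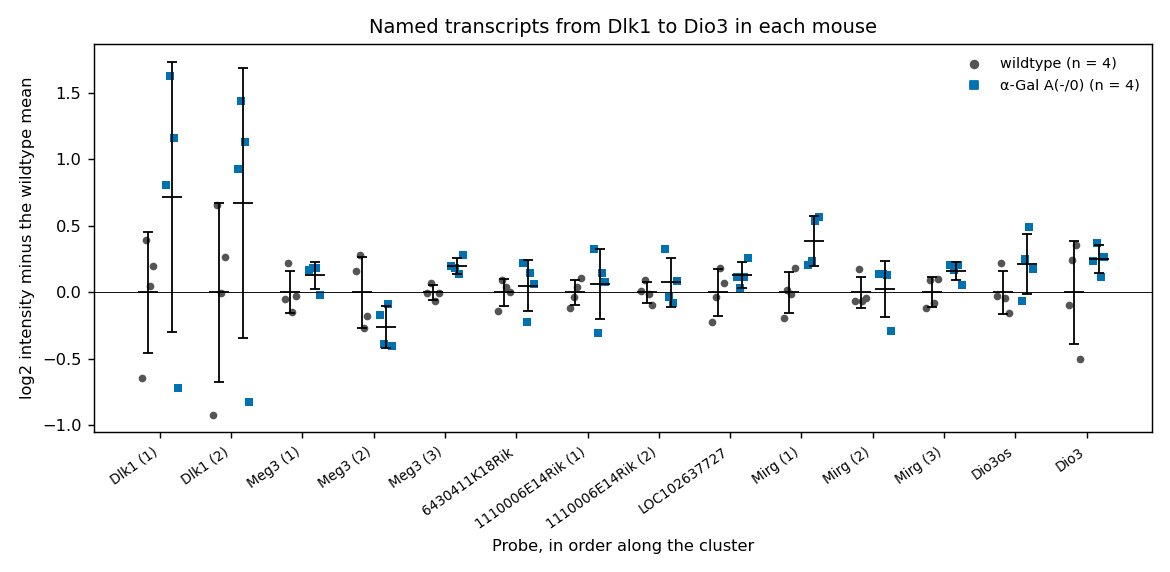
Log2 intensity minus the wildtype mean of the same probe (y axis) for the 14 tested probes with a gene name from Dlk1 to Dio3, in order along the cluster (x axis). Points are mice and bars the mean ± SD of 4. Most differences are small beside the spread, Dlk1 spreads widely in both genotypes, and the genotypes are apart in the third Meg3 and the first Mirg probe, where 0 of the 14 probes were called.

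Genes of the same biology that lie elsewhere were described from 3 lists. Of 37 imprinted genes outside this cluster, 32 were tested with 57 probes, of which 0 were called in limma and 0 in the methods' t-test (unadjusted p under 0.05 for 4 higher and 1 lower), with a median log2 difference of 0.002. The lowest p values belonged to Nnat, a neuronal proteolipid (0.35, adjusted p = 0.206), and Magel2, a gene of the Prader-Willi region (0.43, adjusted p = 0.282). Of 26 probes for 16 genes that keep imprints or set DNA methylation, 0 were called by either test. At an unadjusted p under 0.05, 2 were higher and 1 lower. Closest was 1 of 3 probes of Aff3, a factor that binds imprinted control regions, at -0.19 (adjusted p = 0.219). Next was 1 probe of the methylcytosine oxidase Tet3 at 0.27 (adjusted p = 0.250), while the other tested Tet3 probe differed by 0.03 (adjusted p = 0.967). Of 13 probes for 9 tested genes of the thyroid hormone axis, which includes Dio3, 0 were called by either test (2 lower at an unadjusted p under 0.05). The receptor gene Thra differed by -0.12 (adjusted p = 0.392) in 1 probe and -0.03 (adjusted p = 0.909) in the other. Dio2, the activating deiodinase of astrocytes, differed by -0.19 (adjusted p = 0.399).

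Between the imprinted cluster and the immunoglobulin probes, 91 probes were tested and 2 were called, both within the last part of that interval. The whole-array share of called probes was 0.885%. Among the well known genes there, Dync1h1, the heavy chain of the dynein motor, differed by -0.04, Hsp90aa1, an inducible chaperone, by -0.05, Akt1, a kinase of growth factor signaling, by 0.03, and Mark3, a microtubule affinity kinase, by -0.002 and -0.007 in 2 overlapping probes. The 3 probes of Ppp2r5c, a regulatory subunit of protein phosphatase 2A, differed by -0.02, -0.12 and -0.15. Rcor1, a partner of the neuronal repressor REST, differed by 0.15 and 0.06, Traf3, an adaptor of cytokine receptors, by -0.24, Eif5, a translation initiation factor, by -0.14 and -0.003, and Bag5, a co-chaperone, by 0.10 and -0.09. Klc1, a kinesin light chain, differed by 0.04 and 0.45, Inf2, an actin-binding formin, by 0.14, Jag2, a Notch ligand, by 0.01, Brf1, a factor of RNA polymerase III, by -0.03, Pacs2, a sorting protein, by -0.06, and Mta1, a chromatin remodeling subunit, by -0.01. Their adjusted p values ran from 0.395 to 0.992. Without wildtype mouse 3, the second Klc1 probe was called (0.64, adjusted p = 0.0398). The creatine kinase gene Ckb split by probe: one read 14.94, 15.04, 14.96 and 14.84 against 14.61, 14.78, 14.77 and 14.71, with the genotypes apart (0.22, adjusted p = 0.244), and the other differed by -0.07.

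Crip1, which encodes a small LIM domain protein, was the only called probe of the stretch that rose. It read 11.42, 11.46, 11.44 and 11.65 in α-Gal A(-/0) mice and 10.92, 10.93, 10.91 and 11.06 in wildtype mice. All 4 α-Gal A(-/0) mice lay above all wildtype mice, by a log2 difference of 0.54 ± 0.07, or 1.45-fold (adjusted p = 0.0119). Its neighbour Crip2, a related LIM protein gene that starts at chr12:114383655 in its probe, differed by 0.05 (adjusted p = 0.784). The Crip1 call ended without wildtype mouse 1 (0.52, adjusted p = 0.0547), without wildtype mouse 3 (0.52, adjusted p = 0.0572) and in the methods' t-test (adjusted p = 0.0825).

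The 2 probes of 4930427A07Rik, listed as Tedc1 in RefSeq and encoding a partner of delta and epsilon tubulin, gave opposite pictures. The second probe read 4.41, 4.49, 4.79 and 5.44 in α-Gal A(-/0) mice and 6.55, 6.62, 6.60 and 6.63 in wildtype mice. The wildtype mice were close together and above every α-Gal A(-/0) mouse, of which 2 were well above background. The probe fell by 1.82 ± 0.21 (adjusted p = 0.00554). It passed the filter through the wildtype arrays, where it is high, so its direction was partly set by the filter. The first probe, whose last 31 bases are the first 31 of the second, read 7.99, 7.74, 7.81 and 8.18 against 7.63, 7.83, 7.57 and 7.80, with overlapping genotypes (0.22 ± 0.11, adjusted p = 0.478). With normexp the difference of the second probe was smaller, at -0.73. The pair differs only in the 29 bases printed for each. In the methods' t-test the second probe was not called (adjusted p = 0.285). Past this gene, 2 overlapping probes of Tmem121, a membrane protein, were lower without overlap (-0.26 and -0.23) but not called (adjusted p = 0.113 and 0.122). With an intensity trend and robust variances both were called (adjusted p = 0.0328 and 0.0431). With a 75th percentile shift the first was called (adjusted p = 0.0486).

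Of 105 immunoglobulin heavy chain probes, 20 were tested and 5 were called, all lower, where the whole array had 0.580% called lower. Nothing is read from the excess, since the stretch was chosen for this contrast. Only IgM among the 5 was well above background on all 8 arrays. The others passed the filter through the wildtype arrays, where they are high, so their direction was partly set by the filter. All 5 belong to constant segments, for which 8 probes were tested. Among these 8, the probes labelled IgA here carry the array symbol Igh-VJ558, and the one labelled IgD carries Ighv14-2. Both are symbols of variable segments. Together with the probes of heavy chain complex mRNAs, 9 of 12 were tested. Of 93 variable segment probes 11 were tested, with 0 called in limma, 0 by the methods' t-test and 0 at an unadjusted p under 0.05, and with a median log2 difference of -0.038. In bulk RNA, fewer cells of a type and less RNA per cell cannot be told apart.

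Both IgG2a probes were high in every wildtype mouse and low in every α-Gal A(-/0) mouse. C57BL/6 mice carry at this place the gene of IgG2c, the allelic counterpart of IgG2a, and the IgG2a names here are those of the array design. AK007918 read 5.23, 5.13, 5.68 and 5.25 in α-Gal A(-/0) mice and 9.59, 9.51, 10.51 and 9.56 in wildtype mice. It fell by 4.47 ± 0.23 (adjusted p = 7.23e-05), a 22.2-fold lower level. BC019489 read 5.54, 5.51, 4.36 and 5.63 against 9.32, 9.14, 10.32 and 9.49, and fell by 4.31 ± 0.35 (adjusted p = 0.000736), or 19.8-fold. With normexp background correction, which adds an offset and so draws dim signals together, the log2 differences were smaller, at -3.13 for AK007918 and -3.06 for BC019489. Each was well above background on 3 of 4 α-Gal A(-/0) arrays, and wildtype mouse 3 was the highest in both. The probe named for IgG2c itself, ENSMUST00000103416 at chr12:114523536, was dim: it read 2.63, 2.03, 2.66 and 2.02 against 4.78, 4.20, 3.88 and 4.22, was well above background on 3 wildtype arrays and on none of the α-Gal A(-/0) arrays, and was not tested. Without a filter on signal it was called (-1.94, adjusted p = 0.0240).

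IgG2b, at chr12:114544738, read 4.90, 4.07, 2.87 and 4.22 in α-Gal A(-/0) mice and 6.82, 6.68, 7.99 and 7.31 in wildtype mice. It fell by 3.18 ± 0.44 (adjusted p = 0.0160) and was well above background on 2 of 4 α-Gal A(-/0) arrays. The size of this difference depends on how dim signals are treated, and was -1.44 with normexp. IgG1, at chr12:114568594, read 4.15, 2.996, 2.98 and 3.004 against 5.13, 5.44, 6.11 and 5.72. The array design lists the IgG2c transcript beside IgG1 for this probe, so it may read both. The probe was called (adjusted p = 0.0122) and was well above background on none of the α-Gal A(-/0) arrays. Against a stand-in value for those arrays, its wildtype level was 2.15-fold higher. The stand-in sets each dim array at the lowest normalized signal that counted as well above background there. Where the probe's own value was higher, that value was used. With normexp the IgG1 difference was -0.58, which is smaller, so 2.15-fold is not a firm lower limit. The IgG2b call ended without wildtype mouse 4 (adjusted p = 0.0619) and without a filter on signal (adjusted p = 0.0565), and both calls ended in the methods' t-test (adjusted p = 0.182 and 0.155).

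IgM, the first antibody class a B cell makes, was well above background in all 8 mice. It read 8.02, 7.71, 8.14 and 8.39 in α-Gal A(-/0) mice and 9.88, 9.71, 9.97 and 9.71 in wildtype mice. The groups were apart by more than 1 log2 unit, and the probe fell by 1.75 ± 0.14, or 3.37-fold (adjusted p = 0.000736). In the methods' t-test it was not called (adjusted p = 0.0794). The IgD probe, at chr12:114654277, read 3.38, 4.51, 3.83 and 3.97 against 4.37, 4.34, 4.71 and 4.38, was well above background on none of the α-Gal A(-/0) arrays, and was not called (adjusted p = 0.396).

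IgA, the class made by plasma cells of mucosal surfaces, varied between mice without a split by genotype. Its probe at chr12:114496985 read 7.02, 8.35, 8.21 and 9.16 in α-Gal A(-/0) mice and 8.17, 5.99, 9.65 and 10.96 in wildtype mice. Wildtype mice 2 and 4 were the lowest and the highest of all 8, so the genotypes overlapped over the full range of the α-Gal A(-/0) mice (log2 difference -0.51 ± 0.99, adjusted p = 0.880). The neighbouring IgA probe had the same wildtype mice at its ends, at 4.29 and 9.76 (difference -0.65 ± 1.06, adjusted p = 0.849). A probe of a heavy chain complex mRNA among the variable segments, at chr12:116610609, differed by -0.64 (adjusted p = 0.340). Among the variable segments, the probe of ENSMUST00000103459 read 6.89, 7.01, 7.08 and 7.05 against 7.14, 7.07, 7.04 and 6.96, with overlap (-0.05, adjusted p = 0.815).

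**Figure D3:**
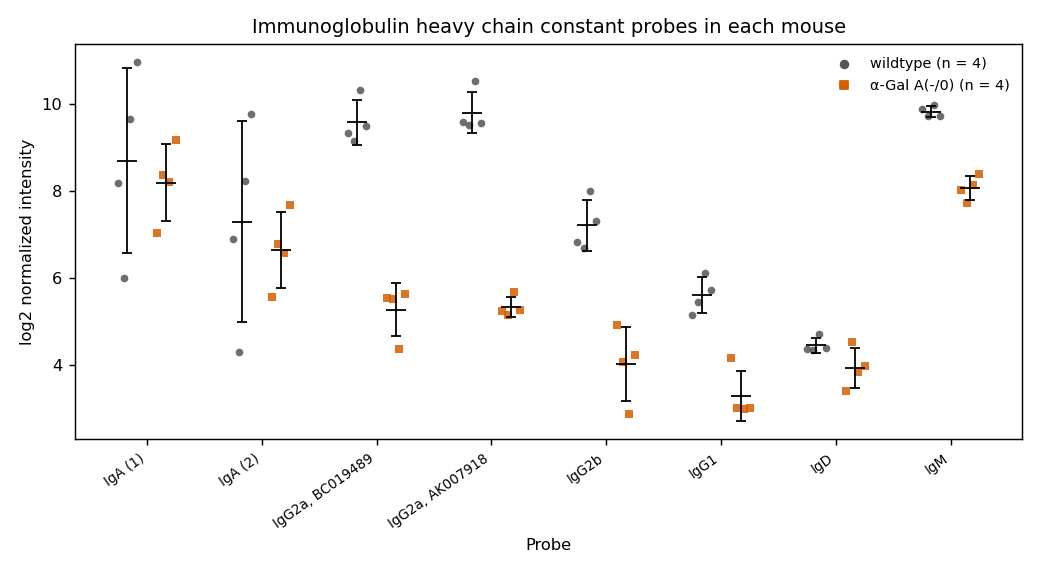
Log2 normalized intensity (y axis) of the 8 tested probes of immunoglobulin constant segments from IgA to IgM in their order on the chromosome (x axis), in 4 wildtype and 4 α-Gal A(-/0) mice. Points are mice and bars the mean ± SD. The genotypes are apart in both IgG2a probes, IgG2b, IgG1 and IgM and overlap in IgA and IgD.

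Other markers of B cells and plasma cells were mostly dim. Igj and 1 of 2 Cd79a probes were well above background on all 8 arrays. Of the 10 listed genes, 5 were tested with 6 probes, of which 0 were called in limma or the methods' t-test. At an unadjusted p under 0.05, 1 probe, of Cd79b, was lower (-0.61, adjusted p = 0.361). Igkc had no probe of that name, and its kappa constant probe is given with the light chains. Cd79a, the partner of Cd79b in the B cell receptor, differed by 0.25 and -0.27 in its 2 probes, and Igj, the joining chain of secreted IgM and IgA, by -0.37 (adjusted p = 0.699). The remaining tested genes, Mzb1 and Sdc1, differed by -0.03 (adjusted p = 0.960) and 0.07 (adjusted p = 0.961). The defining markers Ms4a1 and Pax5 were well above background on none of the 8 arrays. The summed linear signal of the tested probes ranged from 253.3 to 361.8 in α-Gal A(-/0) mice and from 243.8 to 419.2 in wildtype mice, so the groups overlapped. Of the light chain probes, on other chromosomes, 13 of 94 were tested and 0 were called in limma or the methods' t-test, with 3 lower at an unadjusted p under 0.05. The kappa constant probe differed by -1.14 ± 0.87 (adjusted p = 0.646) and a lambda J-C probe by -1.05 ± 0.22 (adjusted p = 0.0933). The lambda probe was well above background on none of the α-Gal A(-/0) arrays, so its direction was partly set by the filter. The light chain set was taken up after the heavy chain values had been seen. The markers of blood summed to 97209.5 to 108128.8 and to 68813.0 to 134789.5, overlapping as well. The part of B cell or blood content in the immunoglobulin differences was not tested.

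Among the other transcripts that lie between immunoglobulin segments, 12 of 48 probes were tested and 0 were called, with 0 at an unadjusted p under 0.05 and 0 by the methods' t-test. Their log2 differences ran from -0.22 to 0.12. Adam6b, a gene of male fertility inside the locus, differed by 0.12 (adjusted p = 0.789).

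Past the immunoglobulin locus, 28 of 43 probes were tested and 7 were called, all lower, from 3 transcripts. Of the 28, 12 were lower and 2 higher without overlap between the genotypes. On the whole array 0.580% were called lower, and 4.87% were lower and 3.08% higher without overlap. As the stretch was chosen on these values, nothing is read from the difference. Zfp386 had 3 probes, and each was lower in every α-Gal A(-/0) mouse. The one at chr12:117298954 read 11.20, 11.02, 10.99 and 10.93 in α-Gal A(-/0) mice and 12.02, 11.75, 11.91 and 11.82 in wildtype mice, and fell by 0.84 ± 0.08, or 1.79-fold (adjusted p = 0.00269). The one at chr12:117298639 read 10.57, 10.41, 10.59 and 10.71 against 11.28, 11.24, 11.29 and 11.25 and fell by 0.70 ± 0.07 (adjusted p = 0.00297). The third, at chr12:117298066, differed by -0.40 ± 0.10 and was not called (adjusted p = 0.141). The middle probe shares a run of 29 bases with a probe of Zfp936, another zinc finger gene on chromosome 7, which was itself lower by 0.61 (adjusted p = 0.000818). It also shares a run of 26 bases with an unnamed probe on chromosome 17, which was not called (-0.24, adjusted p = 0.266). The other 2 Zfp386 probes share no run of 25 bases with any other probe. In the methods' t-test the middle probe was not called (adjusted p = 0.180).

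2310058N22Rik, an unclassified transcript known from a cDNA clone, had the lowest adjusted p of the stretch. Its probe, at chr12:117619193 on the forward strand, read 10.74, 10.80, 10.93 and 10.78 in α-Gal A(-/0) mice and 12.38, 12.40, 12.40 and 12.35 in wildtype mice. It fell by 1.57 ± 0.06, or 2.97-fold (adjusted p = 1.48e-05), and was called under each of the 17 alternative settings.

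The noncoding interval on the opposite strand, chr12:117623500-117643575, begins shortly past that probe. Its 5 tested probes are neighbouring windows of 1 interval and do not count as separate transcripts. The first read 7.06, 6.75, 6.68 and 6.99 in α-Gal A(-/0) mice and 8.29, 8.13, 8.21 and 8.52 in wildtype mice and fell by 1.41 ± 0.12 (adjusted p = 0.000799). The next 3 fell as well, with log2 differences of -1.06, -1.26 and -1.22 and adjusted p values of 0.000972, 0.000590 and 0.000334. Interval probe 4 was not tested with the filter on all 8 arrays. It passed the main filter through 1 genotype only, so its direction was partly set by the filter. The last, with 1 of 4 α-Gal A(-/0) arrays well above background, differed by -1.66 ± 0.37 and was not called (adjusted p = 0.117), while without α-Gal A(-/0) mouse 2 it was called (-1.24, adjusted p = 0.0301). It was also called with a 75th percentile shift (-1.42, adjusted p = 0.0341), with normexp (-0.45, adjusted p = 0.00408) and with an intensity trend (adjusted p = 0.0452). With normexp the first 4 differed by -1.06, -0.82, -0.82 and -0.51. In all 5 probes every α-Gal A(-/0) mouse was below every wildtype mouse. The 4 probes of the same interval on the forward strand were well above background on none of the 8 arrays.

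None of the other distal genes named here was called. Esyt2, a protein of contacts between endoplasmic reticulum and plasma membrane whose probe ends before 2310058N22Rik, read 10.15, 10.03, 10.25 and 10.29 against 9.89, 9.73, 9.76 and 10.06, higher with a slight overlap (0.33 ± 0.09, adjusted p = 0.233). Ncapg2, a condensin subunit gene past the interval, differed by 0.30 ± 0.11 without overlap (adjusted p = 0.348). Wdr60, a subunit of the cilium motor dynein 2, read 9.38, 9.28, 9.70 and 9.48 against 9.96, 9.83, 9.91 and 10.07, lower in every α-Gal A(-/0) mouse and not called (-0.48 ± 0.10, adjusted p = 0.0855). Without α-Gal A(-/0) mouse 3 it was called (adjusted p = 0.0407), and so it was with an intensity trend and robust variances (adjusted p = 0.0239). The predicted gene Gm4132 likewise lay lower without overlap (-0.34, adjusted p = 0.139). Ptprn2, a protein of dense core vesicles, split by probe: the first differed by 0.36 (adjusted p = 0.236), and 2 probes at its other end, which share 45 bases, by -0.15 and -0.30 (adjusted p = 0.733 and 0.411). Without wildtype mouse 2 the first was called (0.46, adjusted p = 0.0433).

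Vipr2, a receptor of the neuropeptides VIP and PACAP, varied widely between mice. It read 7.23, 6.91, 8.58 and 8.84 in α-Gal A(-/0) mice and 9.32, 7.79, 7.69 and 8.72 in wildtype mice, with overlap (-0.49 ± 0.53, adjusted p = 0.751), and 2 further probes of it were not tested. Of 6 tested probes for the 5 genes of this peptide family, 0 were called in limma or the methods' t-test and 0 had an unadjusted p under 0.05. Closest were 1 probe of the receptor Vipr1 at -0.14 (adjusted p = 0.436) and the peptide Vip at -0.24 (adjusted p = 0.577). The other Vipr1 probe differed by 0.04 (adjusted p = 0.914). Farther out, Rapgef5, an activator of Rap proteins, differed by -0.11 (adjusted p = 0.473) and the transcription factor Sp4 by -0.06 (adjusted p = 0.888). Itgb8 lies past 120 Mb and has no probe in the stretch.

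**Figure D4:**
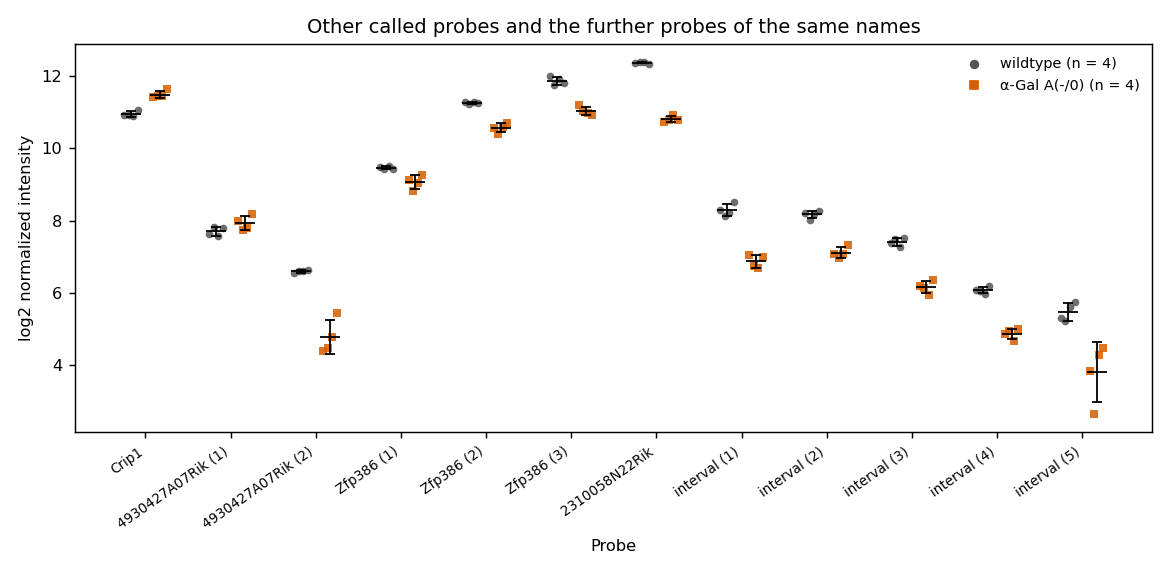
Log2 normalized intensity (y axis) of Crip1, 4930427A07Rik, Zfp386, 2310058N22Rik and the reverse-strand noncoding interval, each probe in its order on the chromosome (x axis), in 4 wildtype and 4 α-Gal A(-/0) mice. Points are mice and bars the mean ± SD. Crip1 is higher in α-Gal A(-/0) mice, the first 4930427A07Rik probe overlaps, and the rest are lower in every α-Gal A(-/0) mouse.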

How the data were processed

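RNA of PFC from 4 α-Gal A(-/0) and 4 wildtype mice was measured, 1 array per mouse, and samples were grouped by the genotype in their labels. Per the file headers, the deposited intensity values were made by the authors with Agilent Feature Extraction 10.7.3.1, which removed a fitted surface, detrended each array and replaced the lowest signals by surrogates. The deposited flags per spot (well above background, uneven, saturated) were used for filters, and the deposited table of log2 values was not used here, since its columns do not follow the sample names. The array design gives positions on mm9. No gene annotation of mm9 was used here, so exons and introns are not given.

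Intensities of the spots of one probe were averaged, taken to log2 and quantile normalized over 8 arrays. Controls were left out, and so were 81 probes with an uneven flag. Tested were 34339 of 55681 probes, each read well above background by the 4 arrays of one genotype or of both, in R 4.3.3 with limma 3.58.1 (lmFit, eBayes; statmod 1.5.0). Tests were two-sided, and p values were adjusted over these probes by Benjamini-Hochberg. All adjusted p values are from this fit unless a setting is named. The methods' t-test, Welch's test on unequal variances, was run on the same values over all tested probes and adjusted in the same way. No test was made over the members of the region or of a list. With 4 arrays for each genotype, their number limits the precision. The p-values set the genotype difference against the spread between these mice, which came from separate colonies.

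The members and lists were chosen with earlier results of these data known. Segments are the probes before Dlk1, the imprinted cluster from Dlk1 to Dio3, the genes between, probes whose symbol or description names an immunoglobulin heavy chain, other transcripts among these, and the distal genes. Named were Gla, the named transcripts of the cluster, all called probes and the other probes of their genes, the 6 brightest immunoglobulin probes, 26 genes known in brain, the probes at the limits, and the list members closest to the threshold. Wdr60, Gm4132, Tmem121, Adam6b, Rtl1, the IgG2c probe and single interval probes, the heavy chain complex probe, IgD and Zfp936 were named after their values were seen where the rule did not name them. Of 255 names of members other than intervals, 87 matched a RefSeq symbol and 4 a synonym. Shared bases were counted in runs of at least 25.

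Alternatives were a 75th percentile shift, normexp (offset 50), all probes without a filter on signal, a filter on all 8 arrays, the omission of saturated probes, the methods' t-test, robust variances with an intensity trend, blocks for the replicate number and for the slide row, and each array left out. The fitting steps were tested on simulated data. Python 3.11.15, pandas 2.3.3, numpy 2.4.6 and matplotlib 3.10.9 were used.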

Additional observations from a re-analysis of the deposited data

Results flagged for a closer look

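In each group of 4 mice, the gap of the highest or lowest mouse to the next was divided by the range of the group, for the 67 named probes in both genotypes, or 134 groups. Chance passes the limit in about 1 of 20 groups, and 9 of 134 passed it, so each is given as a value only. In the imprinted cluster, α-Gal A(-/0) mouse 4 was the low one for the first Meg3 probe (13.76, others 13.95 to 13.97, ratio 0.929) and for the second Mirg probe (11.998, others 12.42 to 12.43, ratio 0.981), and wildtype mouse 2 was high for that Mirg probe (12.46, others 12.22 to 12.25, ratio 0.894). Wildtype mouse 3 was high for one Klc1 probe (6.56, others 5.73 to 5.78, ratio 0.937), wildtype mouse 1 low for Pacs2 (8.22, others 8.35 to 8.37, ratio 0.876) and wildtype mouse 4 high for Crip1 (11.06, others 10.91 to 10.93, ratio 0.855). Among the immunoglobulin probes, α-Gal A(-/0) mouse 3 was low for the IgG2a probe BC019489 (4.36, others 5.51 to 5.63, ratio 0.903), wildtype mouse 3 high for the IgG2a probe AK007918 (10.51, others 9.51 to 9.59, ratio 0.924) and α-Gal A(-/0) mouse 1 high for IgG1 (4.15, others 2.98 to 3.0, ratio 0.978). In the 3 called immunoglobulin probes and in Crip1 the genotypes stay apart with the mouse in place.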

How the results depend on the processing

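Of the 14 called probes, 8 were called in every setting that tested them, 16 settings for both IgG2a probes and 1 interval probe and 17 for the rest: both IgG2a probes, the Zfp386 probe at its far end, 2310058N22Rik and the 4 interval probes. Probes called in the stretch numbered 8 (7 lower) with a filter on all 8 arrays, where 205 were tested, 8 (all lower, 0 higher) by the methods' t-test, 19 with 2 higher under an intensity trend, and 0 higher with the slide row as a block. By the study's criterion, 13 were lower with the filter on all 8 arrays, and 3 higher by the methods' t-test and with the slide row as a block. Among the genes between, 1 was called with the filter on all 8 arrays, 0 by the methods' t-test, 4 under the trend and 1 with the slide row as a block. In the imprinted cluster the trend called 1. Immunoglobulin probes called numbered 1 with the filter on all 8 arrays, 2 by the methods' t-test and 3 with the slide row as a block. Without a filter on signal the median log2 difference was 0.005 before the cluster, 0.024 over all immunoglobulin probes and 0.044 in the other transcripts among them.

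The replicate numbers do not pair the mice: residual correlations of equal numbers were -0.089, 0.139, 0.014 and 0.148, and 2 of 8 arrays correlated best with their own number. With the replicate block 12 probes were called, and 3 immunoglobulin probes, with IgG2b (adjusted p = 0.142) and IgG1 (0.121) no longer called. With the slide row as a block IgG2b (0.0954), IgG1 (0.0675) and Crip1 (0.0654) were not called.

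Leaving out each array in turn gave 13 to 15 called probes, 12 to 14 lower and 0 to 2 higher, 0 without wildtype mouse 1 and 2 without wildtype mouse 2, where Ptprn2 was added. By the study's criterion 19 to 25 were lower and 2 to 7 higher, with 2 without wildtype mouse 1, 3 without α-Gal A(-/0) mouse 3 and 4 without α-Gal A(-/0) mouse 1, α-Gal A(-/0) mouse 4 or wildtype mouse 3. Called probes numbered 1 to 2 among the genes between, 1 without wildtype mouse 1. The median of the genes between ranged from -0.008 to 0.028. The causes were not tested.

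Of 1131 values of named probes under the settings, 1109 kept their status as called or not called. Most of these values belong to uncalled probes, so this count says little about the calls. Of the 14 called probes, 8 kept their call in every setting that tested them. A call was lost in 15 and gained in 7, and 0 called values changed sign. Uncalled values could change sign: the IgA probe at chr12:114496985 ran from -1.412 to 0.248 with single arrays left out. The whole-array median shifted by less than 0.1 in every setting. Signal over background limits the calls: 247 of 489 probes could be tested. With a filter on all 8 arrays, 4 called probes of immunoglobulins, the second 4930427A07Rik probe and interval probe 4 drop out.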
